A study of Mus musculus with 9 samples.

Results

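The genes described here are 38 genes of the unfolded protein response and the integrated stress response, found by their symbols in a table of 46095 gene symbols from bulk RNA sequencing of mouse macrophages. The list was drawn up from the known biology of these responses and not from a threshold on the measured values. It holds 5 stress sensors and kinases of eIF2alpha, 5 transcription factors, 6 effectors and feedback regulators, 3 enzymes of amino acid synthesis, 13 chaperones and folding enzymes of the endoplasmic reticulum (ER), and 6 genes of ER-associated degradation. The cells were bone marrow-derived macrophages, which are grown in culture from marrow precursors, of wild-type Balb/c mice aged 6 weeks. The 3 groups of 3 libraries were control cells, cells given LPS, and cells given LPS plus BHB, and all shared the strain and the wild-type genotype. The labels abbreviate both agents without spelling them out and give no dose or time; LPS is the usual short form of lipopolysaccharide, a bacterial component that activates macrophages, and BHB that of beta-hydroxybutyrate, a ketone body. No group received BHB without LPS, so every statement on BHB is about cells that also received LPS. Whether the libraries of a group stem from separate cultures or mice is not stated in the labels, and the p-values reflect the spread among these samples alone, which may be technical.

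Proteins that enter the secretory pathway fold in the ER, and an excess of unfolded protein there is sensed by IRE1 (gene Ern1), PERK (Eif2ak3) and ATF6. IRE1 splices Xbp1 mRNA so that it encodes an active transcription factor, ATF6 is cut in the Golgi to release another, and both raise chaperones and degradation factors. PERK phosphorylates the initiation factor eIF2alpha, as do the kinases HRI (Eif2ak1), PKR (Eif2ak2) and GCN2 (Eif2ak4) under heme shortage, double-stranded RNA and amino acid shortage. Phosphorylated eIF2alpha lowers translation in general but favours that of ATF4, which induces CHOP (Ddit3), amino acid enzymes and the phosphatase subunit that reverses the phosphorylation. Macrophages are known to use the IRE1 branch in Toll-like receptor signalling. Gene counts measure RNA abundance only: they hold neither the splicing of Xbp1 nor the cleavage of ATF6, the phosphorylation of eIF2alpha or the translation of Atf4.

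The promoter sequences below are shown because they carry the letters through which these pathways are known to act on their targets. RefSeq's promoter table of build GRCm38.p6 (250 bases before to 50 bases after the transcription start) held 33 of the 38 genes and lacked Atf6, Ppp1r15b, Hyou1, Manf and Derl1. The ER stress response element, searched on both strands as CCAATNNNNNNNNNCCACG with N any base, was present in 8 of the 33 (24.2%), against 37 of 27025 genes in the table (0.137%). The 37 include these 8. Because the list was drawn up from known biology of these responses, this contrast and that for the ATF4 core below are descriptions and not tests. The outer letters of each match are capitals, and each is written 5′ to 3′ on the genome strand named.
Hspa5, chr2:34772025-34772043, plus strand: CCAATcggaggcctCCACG
Hsp90b1, chr10:86705638-86705656, minus strand: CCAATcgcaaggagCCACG
Hsp90b1, chr10:86705533-86705551, plus strand: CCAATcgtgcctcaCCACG
Dnajc3, chr14:118937827-118937845, plus strand: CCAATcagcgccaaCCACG
Pdia6, chr12:17266491-17266509, plus strand: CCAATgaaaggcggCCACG
Calr, chr8:84847075-84847093, plus strand: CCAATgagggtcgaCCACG
Canx, chr11:50325800-50325818, minus strand: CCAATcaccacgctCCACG
Creld2, chr15:88819520-88819538, minus strand: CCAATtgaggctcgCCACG
Syvn1, chr19:6046532-6046550, plus strand: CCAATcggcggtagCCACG
All of these genes but Syvn1, a ubiquitin ligase of ER-associated degradation, encode chaperones or folding enzymes, and Hsp90b1 held 2 matches. The Hspa5 element lay 65 to 47 bases before the transcription start, within these 250 upstream bases, in which the match is in capitals.
Hspa5, chr2:34771840-34772089, plus strand: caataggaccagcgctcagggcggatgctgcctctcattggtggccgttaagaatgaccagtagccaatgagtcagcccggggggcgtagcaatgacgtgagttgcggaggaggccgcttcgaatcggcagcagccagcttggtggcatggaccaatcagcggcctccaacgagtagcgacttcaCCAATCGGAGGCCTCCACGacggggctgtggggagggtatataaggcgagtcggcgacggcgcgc

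A core bound by ATF4 and its partners, searched on both strands as TTNCATCA, was present in 6 of the 33 genes (18.2%), against 1219 of 27025 (4.51%). The core is in capitals between 10 flanking bases on each side.
Atf3, chr1:191183426-191183453, minus strand: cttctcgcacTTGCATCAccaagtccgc
Nupr1, chr7:126625563-126625590, minus strand: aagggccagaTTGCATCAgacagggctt
Trib3, chr2:152344029-152344056, minus strand: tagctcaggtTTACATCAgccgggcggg
Chac1, chr2:119351039-119351066, plus strand: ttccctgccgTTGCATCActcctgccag
Asns, chr6:7693215-7693242, plus strand: gtgcgggaagTTTCATCAtgtggctggg
Herpud1, chr8:94386307-94386334, plus strand: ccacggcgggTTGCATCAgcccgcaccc
Apart from Herpud1, which acts in ER-associated degradation, these genes belong to the transcription factors, effectors and amino acid enzymes. The core of Trib3 lay 14 to 21 bases after the transcription start and the others before it. No gene held a match to both of these searched forms, and other forms of the element or the core were not searched. The Chac1 core lay 193 to 186 bases before the start, within these upstream bases.
Chac1, chr2:119350992-119351241, plus strand: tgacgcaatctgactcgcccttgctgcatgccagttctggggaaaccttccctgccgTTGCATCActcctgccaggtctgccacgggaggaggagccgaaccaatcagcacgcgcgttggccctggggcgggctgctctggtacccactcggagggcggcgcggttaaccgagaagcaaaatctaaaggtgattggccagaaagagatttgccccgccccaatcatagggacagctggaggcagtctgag
The core TGACGTGG, recognised by XBP1, was found in 0 of the 33 genes and in 193 of the 27025 genes (0.714%). Variants of this core were not searched, so the 0 holds for these exact letters only. A match is a description of these letters and not a measured binding site, and the windows hold no sequence farther away.

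Totals were 29633411 to 32798920 counts per library, and 14026 genes, among them all 38, passed the filter on low counts. Chac1 passed it through the LPS and LPS plus BHB libraries alone. On the first principal component of all genes, which took up 80.4% of the variance, control libraries lay apart from the others, and the second (11.3%) separated LPS from LPS plus BHB. LPS plus BHB replicate 3 stood somewhat apart, at -50.5 on the second component against -41.1 and -39.8, and had the lowest share of counts in the 38 genes of its group (1.68% against 1.80% and 1.77%). Summed levels of 9 macrophage markers, in CPM (counts scaled to a common library total), were 19124 to 22486 in control, 9874 to 11253 in LPS and 15619 to 16184 in LPS plus BHB. The markers did not move as one, by edgeR at an adjusted p under 0.05. With LPS 3 were higher and 6 lower, and with BHB 5 were higher, 2 lower and 2 not called. The summed levels of 5 genes that LPS is known to induce were 19.2 to 96.3, 9401 to 9785 and 12358 to 13349. All 5 were higher with LPS, but with BHB 1 was higher, 1 lower and 3 were not called. Their log2 fold changes with BHB ran from -1.10 to 0.96, so that sum does not stand for each gene. Of all genes, 38.4% were higher and 41.4% lower with LPS, and 26.4% and 24.4% with BHB. The 7 neutrophil markers summed to 2.36 to 3.69 CPM in control, 0.385 to 0.857 with LPS and 1.48 to 3.80 with LPS plus BHB, and both that were tested (Ngp and Ltf) were lower with LPS and higher with BHB, by edgeR. The 7 lymphocyte markers summed to 1.85 to 2.93, 0.429 to 0.944 and 0.0347 to 0.318 CPM, the 4 mast cell and basophil markers to 0.321 to 0.828, 0.725 to 1.06 and 1.45 to 1.88, and the 6 stromal markers to 10.1 or less in every library. Elane and Prtn3 (neutrophil) were at 0 in all LPS libraries, and Cd3e and Cd3g (T cell) in all control and all LPS plus BHB libraries. The 5 dendritic cell markers summed to 2.06 to 2.73 CPM in control, 17.9 to 22.03 in LPS and 12.7 to 14.6 in LPS plus BHB. With LPS that sum was mainly Zbtb46, which rose by 4.54, while Cd209a, the other one tested, fell by 5.01. The macrophage, neutrophil, lymphocyte, mast cell and dendritic sums thus moved with the groups, and their part in the results below was not tested. In bulk RNA, fewer cells of a type and less RNA per cell cannot be told apart.

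The comparison of LPS with control asks how the stress genes respond to the activating agent. With LPS 35 of the 38 genes rose and 3 fell, where a call is an adjusted p under 0.05 (Benjamini-Hochberg over all 14026 genes) in the quasi-likelihood test of edgeR, here and below. Of all genes tested, 38.4% rose and 41.4% fell. The largest log2 fold changes were those of Phgdh (6.41), Nupr1 (6.31), Trib3 (6.14) and Chac1, whose value over very few control counts ran from 7.31 to 12.13 across settings (7.86 here), and the 3 genes that fell were Atf3 (-1.21), Eif2ak4 (-0.87) and Eif2ak1 (-0.17). The median was 1.85 over the 38 genes and -0.06 over all genes. The genes together took 0.698% to 0.728% of the counts of a control library and 2.17% to 2.20% of an LPS library, and without Hspa5 alone these ranges were 0.606% to 0.631% and 1.47% to 1.48%. In all 38 the LPS libraries lay entirely above or entirely below the control libraries, as they did in 82.7% of all genes.

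Setting LPS plus BHB beside LPS asks what the second agent changed in activated cells. With BHB 25 of the 38 genes fell and 4 rose, while 9 were not called. Of all genes tested, 24.4% fell and 26.4% rose. The largest fall was that of Ern1 (-1.31, 40.4% of the LPS level), followed by Phgdh (-0.87), Dnajb9 (-0.65), Herpud1 (-0.57) and Sel1l (-0.56). The 4 that rose were Ddit4 (1.58, or 2.99-fold), Ppp1r15b (0.31), Eif2ak4 (0.29) and Edem1 (0.25). The median was -0.25 over the 38 genes and 0.01 over all genes. Of the 38, 33 had LPS plus BHB libraries that did not overlap the LPS libraries, against 56.7% of all genes. Without LPS plus BHB replicate 3, 24 of the 38 fell and 4 rose.

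The comparison of LPS plus BHB with control shows where the genes stood beside resting cells. Here 34 of the 38 genes were higher, 3 lower (Atf3, Eif2ak4 and Eif2ak1) and only Ern1 was not called, against 38% higher and 40.4% lower of all genes. The median was 1.56 over the 38 and -0.06 over all genes, and 37 of the 38 had groups that did not overlap, against 80.2% of all genes. The genes took 1.68% to 1.80% of the counts of an LPS plus BHB library. Of the 35 genes whose mean rose with LPS, 29 had an LPS plus BHB mean between those of control and LPS, 6 lay above the LPS mean and 0 lay below the control mean. Of the 6709 genes in all whose mean was higher with LPS, 3406 lay between, 2448 above the LPS mean and 855 below the control mean. The comparisons share libraries and are not independent of each other. With library totals alone as the scaling, which moved the median of all genes by -0.33, 5 of the 38 genes were lower than in control, since Ern1 (-0.20) and Atf6 (-0.21) turned and Calr (-0.016) was no longer called.

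**Figure D1:**
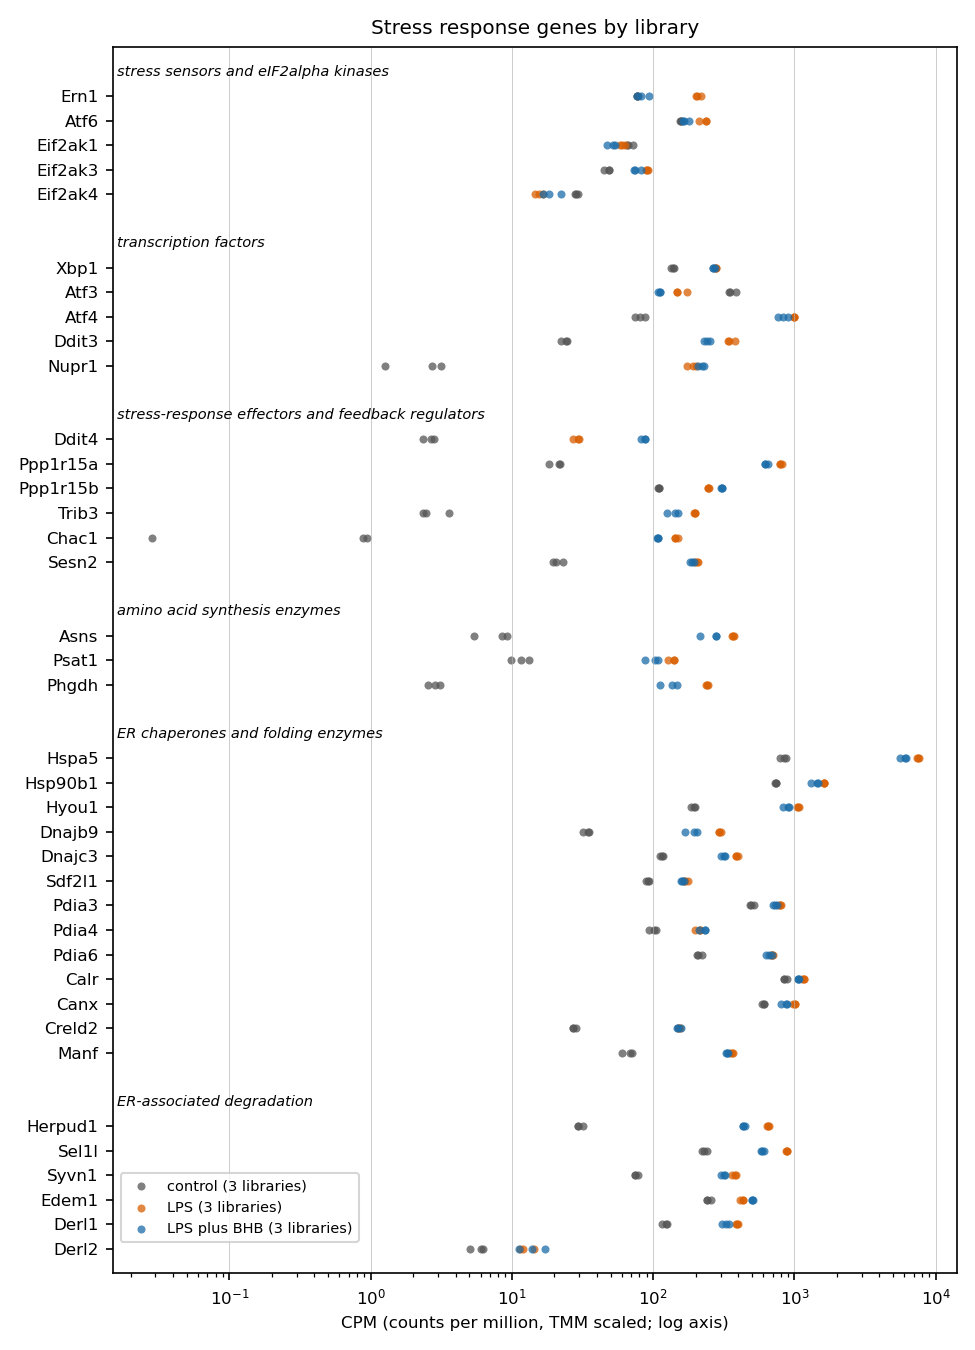
Level of each of the 38 genes in each of the 9 libraries, in CPM on a log axis, by role. The 35 genes that rose with LPS have control libraries (grey) to the left of the LPS libraries (orange), and the LPS plus BHB libraries (blue) of 29 of them have a mean between the other groups, as do 3406 of the 6709 genes in all with a higher mean in LPS.

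Among the stress sensors and kinases 3 of 5 rose with LPS and 2 fell, and with BHB 4 fell and 1 rose. With LPS these were 60% and 40%, against 38.4% and 41.4% of all genes. With BHB they were 80% lower and 20% higher, against 24.4% and 26.4%. The shares that fell with LPS and rose with BHB were thus near those of all genes. Ern1, whose product IRE1 is both a kinase and an endoribonuclease, was at 77.8, 76.9 and 77.3 CPM in control, 205, 202 and 219 with LPS and 82.5, 93.7 and 76.3 with LPS plus BHB. The LPS libraries stood above all others, and the LPS plus BHB libraries overlapped those of control. Ern1 rose with LPS by 1.43 ± 0.06 (SE, adjusted p = 1e-14, edgeR) and fell with BHB by 1.31 ± 0.06 (adjusted p = 4.7e-13). Its difference between LPS plus BHB and control was 0.12, with a 95% interval from -0.00 to 0.25 (adjusted p = 0.069, edgeR). That difference was called in some other settings, among them DESeq2's size factors (0.15, adjusted p = 0.0302) and the fit without LPS plus BHB replicate 3 (0.19, adjusted p = 0.00337), and it was -0.20 with library totals as the scaling.

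Atf6, the Golgi-cleaved sensor, had 157, 154 and 157 CPM in control, 236, 237 and 212 in LPS and 166, 178 and 162 in LPS plus BHB. Every LPS library lay above every other library. It rose with LPS by 0.55 ± 0.05 and fell with BHB by 0.44 ± 0.05 (adjusted p = 3e-07, edgeR), and stood 0.11 above control (adjusted p = 0.049). That last call was lost without any single control library, LPS replicate 1 or 2, LPS plus BHB replicate 1 or 2, or control replicates 2 and 3 (adjusted p from 0.0536 to 0.242), and the value turned to -0.21 with library totals. Eif2ak3, which encodes PERK, had 44.7, 48.4 and 48.4 CPM in control, 89.8, 88.8 and 91.6 in LPS and 72.9, 82.6 and 75.0 in LPS plus BHB. The groups did not overlap, and PERK RNA stayed at 85.3% of its LPS level with BHB, while Ern1 RNA stood at 40.4%. The log2 fold changes of Eif2ak3 were 0.93 with LPS and -0.23 with BHB (adjusted p = 0.0014, edgeR).

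The kinases of the cytosol fell with LPS, and with BHB Eif2ak1 fell and Eif2ak4 rose. Eif2ak4, which encodes the amino acid sensor GCN2, had 29.3, 28.5 and 28.2 CPM in control, 16.7, 14.6 and 15.6 in LPS and 16.7, 18.4 and 22.4 in LPS plus BHB. It fell with LPS by 0.87 ± 0.09. Its rise of 0.29 ± 0.10 with BHB (adjusted p = 0.016, edgeR) came with overlapping libraries and was lost without LPS replicate 2 (adjusted p = 0.0733) or without LPS plus BHB replicate 3 (0.136). Eif2ak1, which encodes the heme-regulated kinase HRI, had 65.9, 65.6 and 72.1 CPM in control, 62.7, 58.5 and 60.0 in LPS and 51.7, 53.9 and 47.4 in LPS plus BHB. The groups did not overlap, though control and LPS lay close together. Its fall of 0.17 with LPS (adjusted p = 0.014, edgeR) was lost under DESeq2, without LPS replicate 2, and without control replicate 3 or control replicates 2 and 3, and its fall with BHB was 0.24 (adjusted p = 0.0019). In the annotation, other genes overlap 15.7% of the exon bases of Hsp90b1, 11.6% of Eif2ak1, 11.4% of Ppp1r15b, 9.25% of Manf and 8.05% of Eif2ak3, and the strand setting of the counting is not known here.

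Of the 5 transcription factors Xbp1, Atf4, Ddit3 and Nupr1 rose with LPS and Atf3 fell, and with BHB 3 fell and 2 were not called. These were 80% and 20% with LPS, against 38.4% and 41.4% of all genes, and 60% lower with BHB, against 24.4%. Xbp1, the splicing substrate of IRE1, rose from 138 ± 3.69 (SD, n = 3) to 277 ± 3.41 CPM with LPS and stood at 267 ± 4.08 with LPS plus BHB. Its LPS plus BHB libraries (272, 264 and 265 CPM) lay just below its LPS libraries (273, 280.2 and 276), without overlap. The Xbp1 difference with BHB was -0.05, with a 95% interval from -0.13 to 0.03 (adjusted p = 0.32, edgeR), while Ern1 RNA fell in the same libraries. With library totals as the scaling Xbp1 was called lower, by a small step (-0.10, adjusted p = 0.0367, edgeR). Counts per gene do not separate spliced from unspliced Xbp1. Atf4, the factor translated under eIF2alpha phosphorylation, went from 81.0 ± 7.17 CPM in control to 994 ± 4.52 with LPS (12.3-fold) and 831 ± 65.4 with LPS plus BHB. Its log2 fold change with BHB was -0.26 ± 0.06 (adjusted p = 0.0012, edgeR).

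Ddit3 encodes CHOP, a factor downstream of ATF4 known for its part in cell death under prolonged stress. It had 22.2, 24.4 and 24.2 CPM in control, 346, 336 and 377 in LPS and 252, 239.7 and 229.7 in LPS plus BHB, and the groups did not overlap. It rose by 3.90 ± 0.06 with LPS and fell by 0.55 ± 0.05 with BHB (adjusted p = 1.1e-08, edgeR). Nupr1, a small stress-induced nuclear protein, had 1.27, 3.13 and 2.70 CPM in control, 189.9, 202 and 174 in LPS and 221, 207 and 229 in LPS plus BHB. All LPS plus BHB libraries lay above all LPS libraries, but its difference of 0.22, with a 95% interval from -0.07 to 0.50, was not called (adjusted p = 0.19, edgeR). It was called in the fit of the 6 libraries compared (adjusted p = 0.00327), without control replicate 1 (0.00332) and without control replicates 2 and 3 (0.00342). Atf3, an ATF4 target that is also known as an early response gene and a repressor of inflammatory genes in macrophages, ran the other way. It had 342, 349 and 387 CPM in control, 147, 147 and 174 in LPS and 109, 112 and 111 in LPS plus BHB. It fell by 1.21 ± 0.06 with LPS and by a further 0.49 ± 0.06 with BHB (adjusted p = 3.2e-06, edgeR), and it was the only transcription factor of the 5 that did not rise with LPS.

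All 6 effectors and feedback regulators rose with LPS, as did 38.4% of all genes, and with BHB 3 fell, 2 rose and 1 was not called. The shares with BHB were 50% lower and 33.3% higher, against 24.4% and 26.4% of all genes. The share that rose with BHB was thus not far from that of all genes. Trib3, a pseudokinase that binds ATF4 and CHOP, had 2.45, 2.36 and 3.59 CPM in control, 196, 199 and 199 in LPS and 149, 143 and 126 in LPS plus BHB. The groups did not overlap, with a rise of 6.14 ± 0.10 and a fall of 0.51 ± 0.07 (adjusted p = 1.8e-05, edgeR). Chac1, which degrades glutathione, had 0.0282, 0.937 and 0.883 CPM in control, 143, 150.1 and 143 in LPS and 107, 109 and 107 in LPS plus BHB. Control replicate 1 held 1 count of Chac1. Against that library alone the LPS level was 5157 times as high, with a 95% counting interval from 925 to 203721, and the log2 fold change without control replicates 2 and 3 was 12.13 in place of 7.86. Those control libraries held more counts of LPS-induced genes than replicate 1, and the mean log2 CPM of the 38 genes was 5.58 in replicate 1 and 5.80 and 5.81 in the others. The fall of Chac1 with BHB (-0.43, adjusted p = 0.046, edgeR) was lost in 10 of 16 other settings, among them DESeq2 (adjusted p = 0.704) and the fits without control replicate 3 or without any single LPS or LPS plus BHB library (0.0528 to 0.133). It was called in the other 6, and its value stayed between -0.48 and -0.41 in all 16. All LPS plus BHB libraries of Chac1 lay below all its LPS libraries.

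Ddit4 and Ppp1r15b were the effectors that rose with BHB. Ddit4, which encodes REDD1, an inhibitor of mTORC1, had 2.34, 2.68 and 2.81 CPM in control, 27.0, 29.5 and 30.1 in LPS and 82.4, 87.8 and 88.2 in LPS plus BHB. The groups lay far apart, with a rise of 3.46 ± 0.09 with LPS and a further 1.58 ± 0.07 with BHB (adjusted p = 4.5e-14, edgeR). Ppp1r15b encodes CReP, a constitutive subunit of the phosphatase of eIF2alpha. It had 109, 109.7 and 110.4 CPM in control, 250.5, 243 and 246 in LPS and 302, 306 and 309 in LPS plus BHB, again with no overlap, and rose by 1.17 ± 0.04 and by a further 0.31 ± 0.04 (adjusted p = 1.1e-06, edgeR). Its stress-induced counterpart Ppp1r15a, which encodes GADD34, rose with LPS by 5.27 ± 0.06, from 20.7 ± 1.99 to 796 ± 12.8 CPM, and fell with BHB by 0.34 ± 0.05 to 628 ± 16.4. The subunits of the same phosphatase were thus called in opposite directions with BHB, and GADD34 RNA had the larger rise with LPS. Sesn2, a leucine-sensing inhibitor of mTORC1, rose from 21.1 to 204 CPM with LPS and stood at 189 with LPS plus BHB, a difference that was not called (-0.10, adjusted p = 0.084, edgeR).

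**Figure D2:**
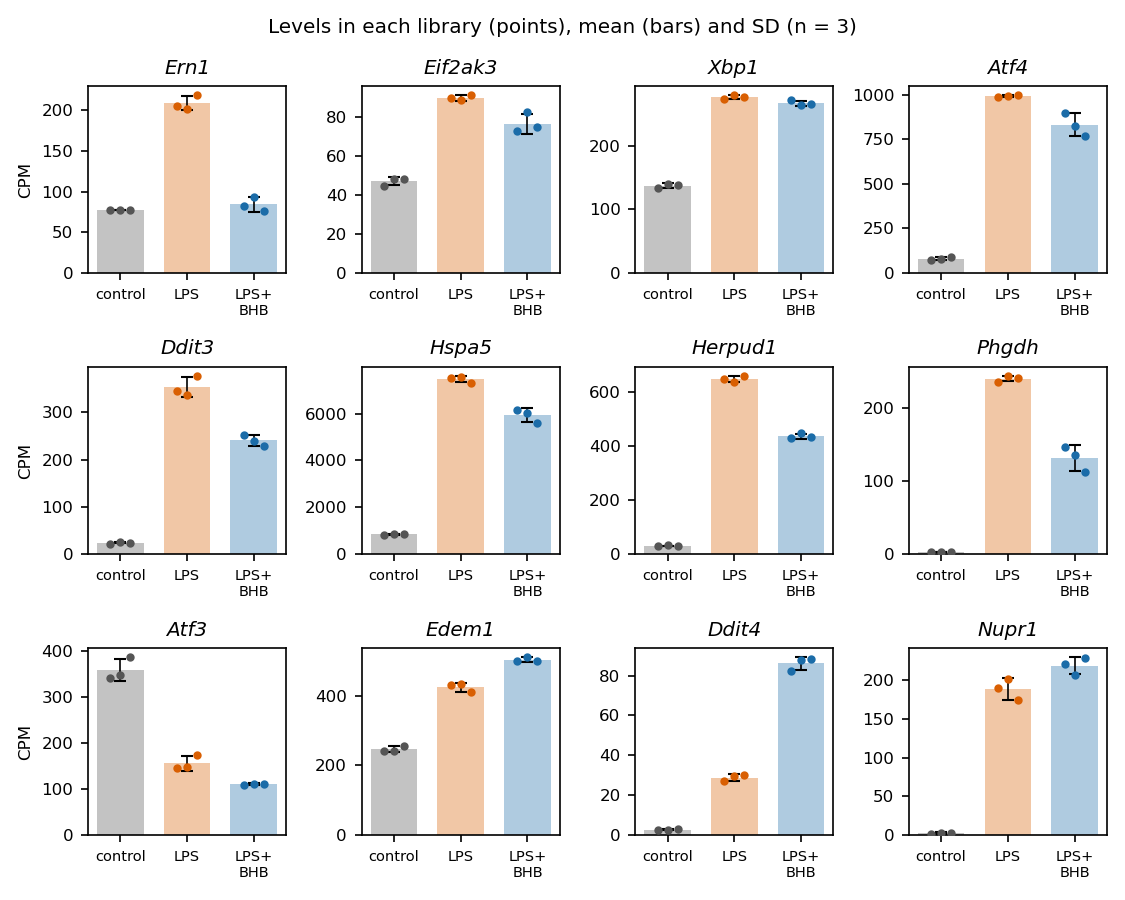
Levels of 12 of the genes in CPM on linear axes from 0, with a point per library, bars for the mean and error bars for the SD (n = 3 per group). With LPS plus BHB, Ern1 lies at 84.2 CPM beside 77.3 in control, Xbp1 at 267 beside 277 with LPS, and Ddit4 at 2.99 times its LPS level, while Atf3 is highest in control.

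The enzymes Asns, Psat1 and Phgdh, which make asparagine and serine and are known ATF4 targets, all rose with LPS and all fell with BHB. Over all genes 38.4% rose with LPS and 24.4% fell with BHB. Phgdh, the entry enzyme of serine synthesis, had 2.53, 3.11 and 2.84 CPM in control, 237, 244 and 241 in LPS and 147, 135 and 112 in LPS plus BHB. The groups did not overlap, and the changes were 6.41 ± 0.11 and -0.87 ± 0.08 (adjusted p = 2.7e-07, edgeR). Phgdh is uncertain as a locus, because 55.9% of the 31-base words of its transcripts also occur in other genes, mainly the near copy Gm7901, which moved in the same directions (14, 28 and 29 counts in control, 2031, 1934 and 1862 in LPS, and 1213, 977 and 905 in LPS plus BHB). Asns, asparagine synthetase, had 5.43, 9.24 and 8.58 CPM in control, 372, 366 and 359.9 in LPS and 276, 277 and 216 in LPS plus BHB. LPS plus BHB replicate 3 was the lowest of its group in all 3 enzymes. Asns rose by 5.56 ± 0.19 and fell with BHB by 0.51 ± 0.14 (adjusted p = 0.022, edgeR), a call that was lost without any single LPS library (adjusted p from 0.0512 to 0.0638). Psat1 rose by 3.56, from 11.6 to 136 CPM, and fell by 0.45 to 99.6 CPM.

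All 13 chaperones and folding enzymes rose with LPS, by 0.42 (Calr) to 3.16 (Hspa5), and with BHB 8 fell and 5 were not called. The 8 were 61.5% of the 13, while 24.4% of all genes fell with BHB and 38.4% rose with LPS. Hspa5 encodes BiP, the chief Hsp70 chaperone of the ER, which also holds the sensors inactive. It had 794, 867 and 843 CPM in control, 7531, 7571 and 7319 in LPS and 6158, 6039.9 and 5588 in LPS plus BHB. BiP RNA was thus 8.96-fold higher with LPS, and fell with BHB by 0.33 ± 0.05 (adjusted p = 1.5e-05, edgeR) to a level still 7.10-fold above control. Dnajb9, a BiP cochaperone and known target of XBP1, had 31.9, 34.4 and 35.3 CPM in control, 290.4, 295 and 304 in LPS and 195, 204 and 168 in LPS plus BHB. The groups did not overlap, and its fall of 0.65 ± 0.06 (adjusted p = 2.2e-08, edgeR) was the largest of the 13 with BHB, where it stood at 63.9% of the LPS level. Among the others that fell, Dnajc3, an inhibitor of PERK and cochaperone, changed by 1.76 with LPS and -0.30 with BHB. Hyou1, a large Hsp70-like chaperone, changed by 2.46 and -0.26, Canx, the lectin chaperone calnexin, by 0.73 and -0.23, and Hsp90b1, the ER Hsp90 paralog, by 1.13 and -0.20.

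The smallest calls among the chaperones were Pdia3 (-0.11, adjusted p = 0.045, edgeR) and Calr (-0.11, adjusted p = 0.041), and each was lost in 5 other settings. Both calls ended without LPS replicate 1, LPS replicate 2 or LPS plus BHB replicate 2, that of Pdia3 also without LPS plus BHB replicate 3 and that of Calr without LPS plus BHB replicate 1 (adjusted p from 0.0747 to 0.138). The 5 not called with BHB were the disulfide isomerases Pdia4 (0.12) and Pdia6 (-0.06), the BiP regulator Sdf2l1 (-0.08), and Creld2 (-0.01) and Manf (-0.12), which are small ER proteins induced by ATF6 and XBP1. Creld2 stood at 153 ± 2.08 CPM with LPS and 152 ± 5.06 with LPS plus BHB, 5.58-fold and 5.55-fold above control, and the 95% interval of its difference with BHB ran from -0.10 to 0.08. Manf (adjusted p = 0.053, edgeR) was called lower in 10 of 16 other settings, and Pdia4 higher without LPS plus BHB replicate 3 (0.16, adjusted p = 0.0122). Of the 7 chaperone genes whose window held the ER stress response element, 5 fell with BHB and Pdia6 and Creld2 were not called, so the printed element was present on both sides.

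The 6 genes of ER-associated degradation, which move misfolded proteins to the proteasome, all rose with LPS, and with BHB 4 fell, 1 rose and 1 was not called. Over all genes 38.4% rose with LPS. The shares with BHB were 66.7% lower and 16.7% higher, against 24.4% and 26.4% of all genes. Herpud1, which organises the degradation complex, had 29.2, 31.7 and 29.2 CPM in control, 648, 637 and 661 in LPS and 432, 448 and 433 in LPS plus BHB. Its groups were separate, with changes of 4.43 ± 0.05 and -0.57 ± 0.04 (adjusted p = 4.8e-10, edgeR). Sel1l, the adaptor of the ligase, had 222, 228 and 239 CPM in control, 886, 881 and 865 in LPS and 590.4, 611 and 579 in LPS plus BHB. It rose by 1.93 ± 0.04 and fell by 0.56 ± 0.04, so that it stood at 67.7% of its LPS level, as Herpud1 stood at 67.5%. The ligase itself, Syvn1, had 74.1, 74.9 and 77.7 CPM in control, 379, 384 and 362 in LPS and 325, 319 and 299.8 in LPS plus BHB. Its fall of 0.25 was smaller than that of its adaptor, though the difference between these falls was not tested.

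Edem1, a mannosidase-like protein that hands glycoproteins to degradation and a known XBP1 target, was the degradation gene that rose with BHB. It had 242, 241 and 256 CPM in control, 432, 433 and 409.6 in LPS and 500.2, 511 and 499 in LPS plus BHB, with no overlap between groups. The changes were 0.79 ± 0.04 and a further 0.25 ± 0.04 (adjusted p = 5e-05, edgeR). The channel proteins Derl1 and Derl2 rose with LPS by 1.69 and 1.12, and with BHB Derl1 fell by 0.27 while Derl2, at 5.78 to 14.0 CPM on average, differed by 0.15, which was not called.

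**Figure D3:**
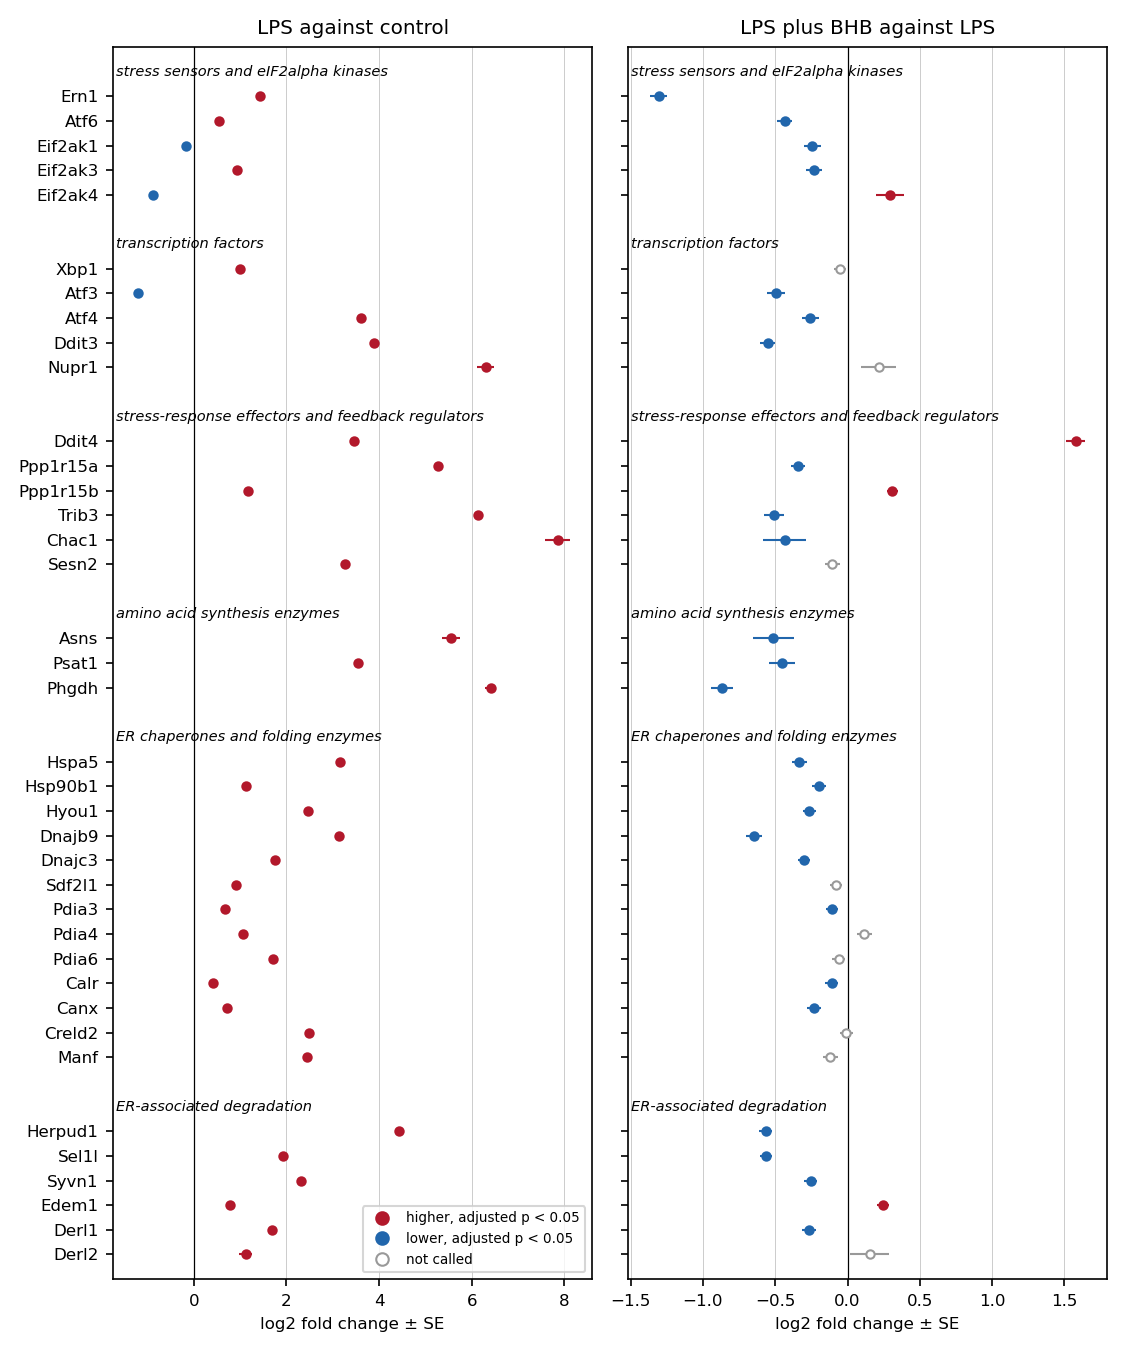
Log2 fold change with its SE for each of the 38 genes by role, in LPS against control (left) and LPS plus BHB against LPS (right); filled points were called at an adjusted p under 0.05 and open points were not. On the right, 25 genes lie below 0 among the called ones and 4 above, with Ern1 (-1.31) and Ddit4 (1.58) at the ends.

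Compared per kilobase of the longest annotated transcript, a scale on which genes can be set beside each other, Hspa5 had the highest level with LPS (2035 CPM per kilobase). Calr (527), Hsp90b1 (500.3) and Atf4 (493) followed, and Eif2ak4 (2.95) and Derl2 (2.88) had the lowest. In control the order was Calr (393), Hsp90b1 (228), Hspa5 (227) and Atf3 (181). On this scale BiP RNA thus went from beside Hsp90b1 to far above it. The closeness in control rests on the longest transcript as the length, and the difference between these genes was not tested. Before division by length the control levels were 835 ± 37.4 CPM for Hspa5 and 736 ± 6.15 for Hsp90b1 (SD, n = 3).

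Other genes of the pathways, taken from lists of known function, are set beside the 38. Of 23 further targets of the integrated stress response 22 were tested (Fgf21 was not), and 22 rose with LPS, with a median of 3.14. This was 100% of those tested, against 38.4% of all genes. With BHB 12 of the 22 fell and 6 rose, with a median of -0.41. These were 54.5% and 27.3% of the 22, against 24.4% and 26.4% of all genes. The share that rose was thus near that of all genes. Slc3a2, the shared chain of amino acid transporters, changed by 2.35 with LPS and -0.46 with BHB. Psph, the last enzyme of serine synthesis, went from 8.75 ± 0.689 CPM in control to 46.2 ± 1.10 with LPS and 18.2 ± 1.74 with LPS plus BHB, a fall of 1.34 ± 0.08 (adjusted p = 1.6e-11, edgeR). Atf5, a factor related to ATF4, changed by 2.69 and -0.84. Others rose with both agents: Gadd45a, a DNA damage gene, by 1.18 and a further 1.01, Slc7a11, the cystine transporter, by 4.58 and 0.56, and Gpt2, an alanine transaminase, by 2.29 and 0.42.

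Of 21 genes of translocation into the ER and the early secretory pathway, 19 rose with LPS and 1 fell (median 1.64). These were 90.5% and 4.76%, against 38.4% and 41.4% of all genes, whose median was -0.06. With BHB 14 of the 21 fell and 0 rose (median -0.23), by edgeR at the same threshold. Srpr, the receptor of the signal recognition particle, changed by 2.13 and -0.38, and Ssr2 and Ssr3, of the translocon-associated complex, by 1.84 and -0.45 and by 1.86 and -0.15. About the same share of this list as of the 38 genes was called lower with BHB, 66.7% against 65.8%. The share over all genes was 24.4%. Srpr shares 26.9% of its 31-base words with other genes.

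Further folding enzymes moved in both directions. Of 19 other ER folding genes 15 rose and 4 fell with LPS (median 0.90), and 6 rose and 6 fell with BHB (median 0.06). With LPS these were 78.9% and 21.1%, against 38.4% and 41.4% of all genes. With BHB they were 31.6% each, not far from the 26.4% and 24.4% of all genes. P4hb, the disulfide isomerase PDI, went from 546 ± 12.8 CPM to 929 ± 41.2 with LPS and 1553 ± 88.1 with LPS plus BHB, rising by 0.77 and then by 0.74. Dnajc1, a BiP cochaperone, rose by 0.90 and fell by 0.75, to a level 0.15 above control. Erp29, an ER lumen protein, fell by 2.40 with LPS, and Hspa13, an Hsp70-like protein, rose by 2.51. Of 16 other degradation genes 12 rose and 3 fell with LPS (median 1.10), and 5 rose and 7 fell with BHB (median -0.10). The shares with LPS were 75% and 18.75%, against 38.4% and 41.4% of all genes. With BHB they were 31.25% and 43.75%, against 26.4% and 24.4%. Nploc4, a cofactor of the p97 segregase, changed by 1.60 and -0.23, Ubxn4, which tethers p97 to the ER, by 1.28 and -0.51, and the conjugating enzyme Ube2j1 by 1.19 and 0.14. Sel1l3 ran opposite to Sel1l in both comparisons, with -1.38 and 1.03.

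Of 20 regulators of the sensors and parts of the eIF2 machinery 19 were tested, of which 14 rose and 2 fell with LPS (median 0.79), and 4 rose and 9 fell with BHB (median -0.14). The shares with LPS were 73.7% and 10.5%, against 38.4% and 41.4% of all genes. With BHB they were 21.1% and 47.4%, against 26.4% and 24.4%. Ern2, the epithelial relative of Ern1, had 0 counts in all libraries. Eif2ak2, which encodes PKR, fell from 65.0 to 17.5 CPM with LPS (-1.89), so that Eif2ak3 was the kinase of eIF2alpha that rose while Eif2ak1, Eif2ak2 and Eif2ak4 fell. PKR stood at 21.04 CPM with LPS plus BHB (0.27, adjusted p = 0.013, edgeR). Of the proteases that cut ATF6, Mbtps1 changed by 0.20 with LPS and -0.40 with BHB, and Mbtps2, 30.97% of whose 31-base words occur in other genes, by 0.24 with BHB, while its difference with LPS was -0.08 and not called. Creb3 and Creb3l2, ER-bound factors cut in the same way as ATF6, moved apart with BHB. Creb3 changed by 1.86 and -0.59, and Creb3l2 went from 35.0 ± 0.611 to 45.6 ± 3.07 and 155 ± 16.4 CPM, a rise with BHB of 1.76 ± 0.07 (adjusted p = 9.8e-14, edgeR). Eif2s2, the beta subunit of eIF2, rose by 2.42 and fell by 0.33.

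Of 5 RNAs that IRE1 is known to cut in other cells 4 were tested (Scara3 was not). With LPS 1 rose and 2 fell, and with BHB 1 rose and 0 fell. Of all genes, 38.4% rose and 41.4% fell with LPS, and 26.4% rose and 24.4% fell with BHB. Pdgfrb rose by 4.79 with LPS and by 0.49 with BHB, Hgsnat fell by 1.98 with LPS and differed by 0.01 with BHB, and Col6a1, at under 1 CPM on average in every group, was not called in either.

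**Figure D4:**
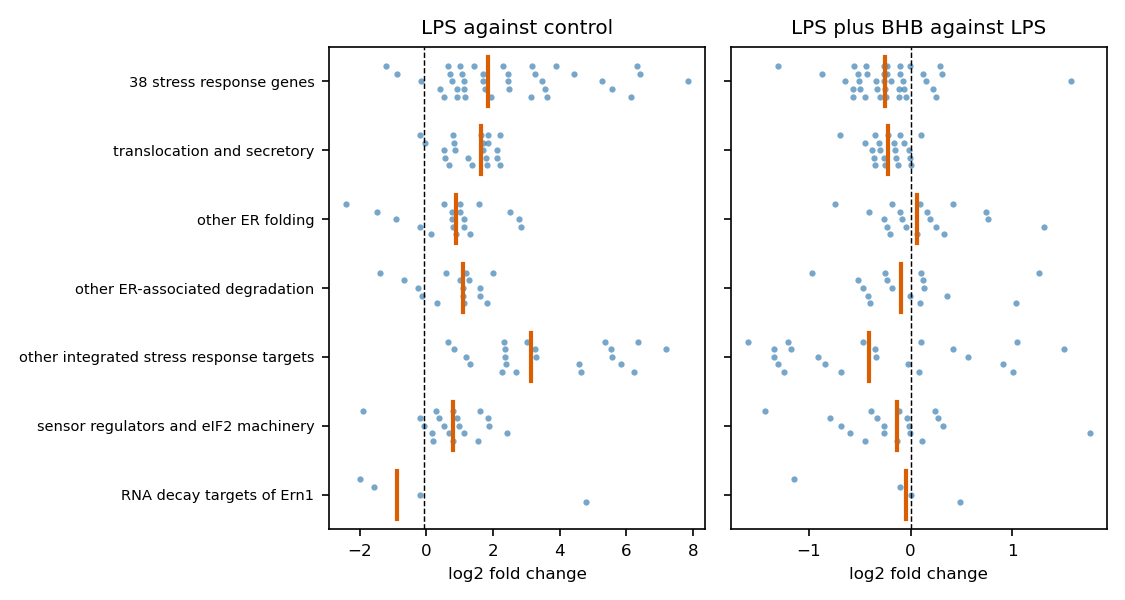
Log2 fold changes of the 38 genes and of 6 further lists, a point per tested gene, in LPS against control (left) and LPS plus BHB against LPS (right). Orange bars mark the median of a list and the dashed line that of all 14026 genes (-0.06 and 0.01); the 38 genes have medians of 1.85 and -0.25.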

How the data were processed

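Per the labels' protocols, RNA of 9 libraries was sequenced by Illumina methods. Alignment used HISAT2 and build mm10, per the submitters' processing notes. Aligner version, counting tool, gene annotation and strandedness: not given in the sources used here. The authors deposited raw counts by gene symbol in a single table, with a column for each library.

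The filter filterByExpr (minimum count 10) kept 14026 genes with 99.956% of the counts. After TMM scaling, a robust quasi-likelihood model with group as its only term was fitted to all 9 libraries in edgeR 4.0.16 (R 4.3.3), with 6 residual degrees of freedom and a biological coefficient of variation of 6.72%. Two-sided p-values were adjusted by Benjamini-Hochberg over all genes and called at 0.05. CPM are counts relative to the TMM-scaled library total. The SE is the absolute log2 fold change over the square root of the F statistic and is approximate, and counting intervals cover counting error only. The test was run on simulated data first. Within groups, libraries differed by more than sampling noise (chi-square per degree of freedom 3.16 to 11.2), and all 9 were counted separately. Such a spread cannot show whether the libraries stem from separate cultures or mice.

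Per-library values are given for the 5 sensors, the 2 called genes of each role with the largest changes in LPS against control and in LPS plus BHB against LPS, and those called against most of their role. From each further list the 2 genes with the smallest p per comparison are named, with Eif2ak2, Ern2, Mbtps1, Mbtps2, Atf5 and Slc7a11. Members and lists were chosen with earlier results of these data known. Alternatives were DESeq2 1.42.0, its size factors in edgeR, library totals, no filter, a replicate block, fits of 6 libraries, and leaving out single libraries or control replicates 2 and 3. Shared words and overlaps come from the mouse annotation of GENCODE release M21. The result of a further marker list is not reported here.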

Additional observations from a re-analysis of the deposited data

How the results depend on the processing

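Of 608 results each (38 genes in 16 other settings), 604 kept their direction and call in LPS against control, 564 in LPS plus BHB against LPS and 593 in LPS plus BHB against control. The genes that rose with LPS numbered 35 in every setting. Those that fell with BHB numbered 21 to 30, with 30 under library totals and 21 to 26 when a single library was left out. Reversed results arose only under library totals, in LPS plus BHB against control, for Ern1 (-0.20), Atf6 (-0.21) and Calr (-0.016), where 5 genes were lower in place of 3. That scaling moved the median of all genes by -0.27, -0.05 and -0.33 in the order of comparisons above, and split all genes into 4283 higher and 7084 lower with LPS (5390 and 5801 with TMM), 3297 and 3987 in LPS plus BHB against LPS (3697 and 3418) and 3922 and 7366 in LPS plus BHB against control (5328 and 5662). Same-numbered libraries did not deviate together (r from -0.02 to 0.04). These values cannot show whether such libraries shared a culture or a mouse. With a replicate block 21 genes fell with BHB in place of 25, without Chac1, Asns, Pdia3 and Calr, and no other call was lost. Depth limited only Chac1 in control replicate 1, at 1 count.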

Other observations

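The pattern of the 25 genes that fell with BHB was not confined to stress genes. The log2 CPM of each of the 25 was standardised over the 9 libraries, and the mean of the 25 was taken. That mean includes Atf3 and Eif2ak1, which fell with LPS. It was set beside the log2 CPM of 13862 genes outside the lists. Of these, 460 had a Pearson correlation of at least 0.99, as a description over libraries that share 3 groups. The most alike was Rela, the p65 subunit of NF-kappaB (r = 0.9997), at 106 ± 3.92 CPM in control, 342 ± 3.81 in LPS and 255 ± 12.0 in LPS plus BHB (SD, n = 3). Scfd1, which acts in vesicle fusion between ER and Golgi, followed with 32.2 ± 1.49, 87.7 ± 1.49 and 68.3 ± 3.59 CPM. Tbc1d15, Gtpbp4 and Usp47 came next.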
